A study of Mus musculus and Homo sapiens with 47 samples.

Results

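Gene expression was compared between SUDHL10 cells exposed to MAK683 for 1 or 3 days and untreated SUDHL10 cells. SUDHL10 is a human B cell lymphoma line of germinal centre type that carries an activating mutation of EZH2. The treated group was made of the 2 libraries whose labels name MAK683 with day 1 or day 3, 1 library each, and the control group of the 2 untreated libraries, both labelled day 5. These 4 libraries are 4 of the 13 SUDHL10 RNA libraries and 4 of the 47 samples of the series, which deals with the dilution of the histone mark H3K27me3 and the role of poised promoters. Treated cells received the compound at 5 uM. No transgene, deletion or further agent is named for either group. The untreated cells are not described as having received a solvent. Of the other SUDHL10 libraries, 1 of MAK683 at day 5 (5 uM) and 4 of UNC1999 at days 1 and 3 (5 uM, 2 a day) were set beside these groups. The UNC1999 libraries of days 5 and 6 (5 uM, 2 a day) are given for the levels of some genes.

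Polycomb repressive complex 2 (PRC2) places methyl groups on lysine 27 of histone H3 and so keeps developmental genes silent. EZH2 or EZH1 is its catalytic subunit, SUZ12 is its scaffold, and EED reads the finished mark and so stimulates the enzyme. MAK683 binds the pocket of EED that reads the mark, whereas UNC1999 competes with the methyl donor at EZH2 and EZH1. Germinal centre B cells depend on EZH2 for fast division and for holding back the genes of later B cell stages, and inhibitors of the complex are used in lymphomas with EZH2 mutations. Once the complex is inhibited, the mark is diluted as cells divide.

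The 4 libraries held 30163232 to 34780437 counts, and 14892 to 16590 genes had counts in them. RNA was total RNA in single-end libraries. Values are counts scaled to a common library size (CPM). They serve to compare 1 gene between libraries and not genes with each other, because they are not divided by gene length. Log2 fold changes, standard errors (SE) and adjusted p-values come from edgeR's quasi-likelihood test with Benjamini-Hochberg adjustment over 15278 tested genes, and a gene was called at an adjusted p under 0.05. The word rose or fell is used of called genes. Sample titles use the term biological replicate, and separate cultures are not named. A p-value here therefore reflects the spread of the libraries, part of which may be technical. The treated libraries of the main comparison are of different days and were fitted as a single group. Any difference between these days thus counts as spread within the treated group. It enters the SE and p-values of that comparison, which are not a measure of replicate noise alone. In bulk RNA, fewer cells of a kind and less RNA per cell cannot be told apart.

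Treatment and day cannot be told apart in this comparison, because the untreated libraries are of day 5 and the treated ones of days 1 and 3. The library of MAK683 at day 5 shares the compound with the treated group and the day with the untreated one, and it stood apart from the other MAK683 libraries and nearest to the untreated ones. The labels alone do not settle whether the sample names of these day 5 libraries hold. Across genes, its log2 CPM had Pearson correlations of 0.960 and 0.963 with the untreated libraries, and of 0.927 and 0.939 with MAK683 days 1 and 3. MAK683 days 1 and 3 correlated at 0.978 with each other, at 0.946 to 0.952 with the untreated libraries, and day 1 at 0.984 with both UNC1999 day 1 libraries. The untreated pair correlated at 0.986. These coefficients run across genes, which are not independent replicates. For this reason the MAK683 day 5 value is given beside most results below, in a comparison added after the data were seen. It rests on 1 library against the same 2 untreated libraries. In it 4522 genes (29.6%) were called, 2372 higher (15.5%) and 2150 lower (14.1%). MAK683 days 1 and 3 differed from MAK683 day 5 in 8495 genes (55.6%), 4040 higher (26.4%) and 4455 lower (29.2%).

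**Figure D1:**
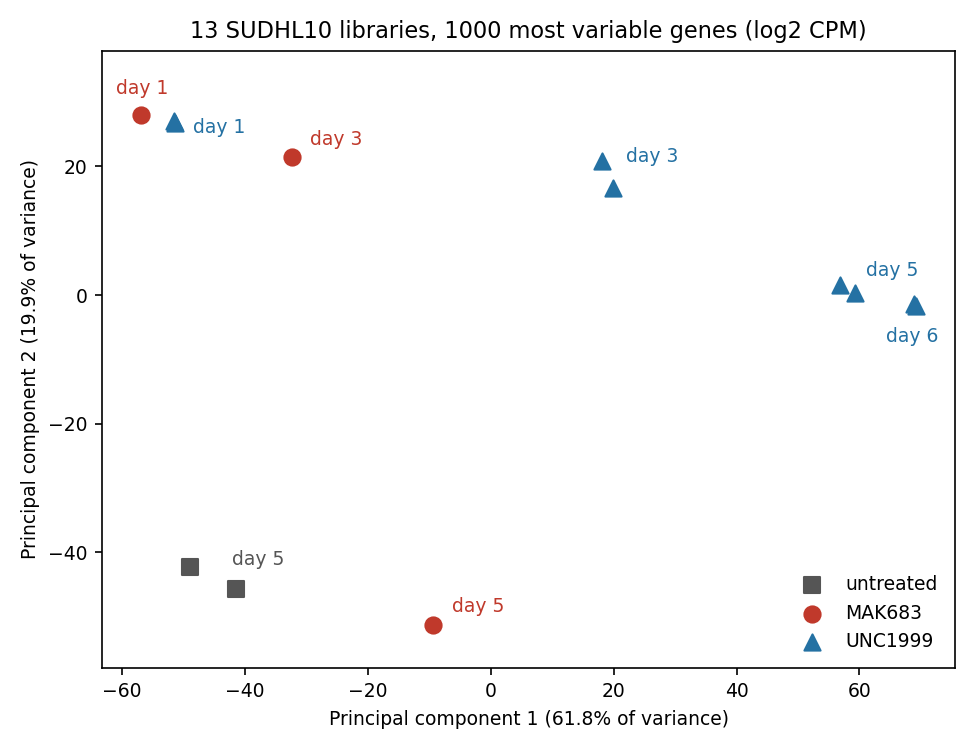
Principal components 1 (x axis) and 2 (y axis) of log2 CPM over the 1000 most variable genes; each point is 1 of the 13 SUDHL10 libraries, with squares for untreated, circles for MAK683 and triangles for UNC1999. On component 2 the MAK683 libraries of days 1 and 3 lie at 28 and 21.4, the untreated libraries at -45.7 and -42.3, and MAK683 day 5 at -51.3.

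The libraries carried the markers of a B cell line. The 6 B cell markers, among them CD79A, CD79B, MS4A1, CD22 and PAX5, were counted in all 4 libraries. Their summed level was 3730 and 3770 CPM in untreated cells and 2160 to 2380 CPM with MAK683, with most of the gap in MS4A1 and CD22. The 5 germinal centre markers BCL6, MME, LMO2, MYBL1 and S1PR2 summed to 1230 to 1320 CPM untreated and 801 to 1130 CPM treated. Markers of other lineages were near 0: 5 T and NK cell markers summed to at most 3.45 CPM in any of the 4 libraries, 5 myeloid markers to at most 6.21 CPM, and 5 stromal and epithelial markers to at most 3.57 CPM. CD8A was at 0 in all 4 libraries, and no library exceeded 0.0295 CPM for CD14. The last 2 of these lists were lower in treated than in untreated cells, at 0.44 to 2.12 against 2.77 to 6.21 CPM and at 0.237 to 0.472 against 1.8 to 3.57 CPM. The part of such RNA in the results was not tested.

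Of the 15278 tested genes, 6957 (45.5%) were called between MAK683 days 1 and 3 and untreated cells. Of these, 3755 (24.6%) were higher and 3202 (21%) lower with MAK683. This balance turned under RLE size factors (3380 higher, 3567 lower) and with DESeq2 (3435 and 3584), but not under total library size (3536 and 3424). With a fold change over 2 in addition, 1352 genes (8.85%) were higher and 1625 (10.6%) lower. The ranges of the treated and untreated pairs did not overlap in 4983 genes that were higher (32.6%) and 5053 that were lower (33.1%), called or not. The counts of any gene group below are to be read against these shares. Day 1 alone differed from untreated in 7430 genes (48.6%; 26.2% higher, 22.4% lower), and day 3 alone in 7392 (48.4%; 26.2% higher, 22.2% lower), each with 1 treated library and the same untreated ones. The number of higher genes was 2433 when only the 4 libraries entered the fit. Group counts are over tested genes; some lists had many genes with too few counts to test, with 19 of 39 HOX genes tested, 33 of 141 developmental factors, 23 of 39 neuronal, 10 of 20 T and NK cell, 17 of 26 myeloid, 8 of 17 germline and 8 of 13 metallothionein and zinc genes.

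**Figure D2:**
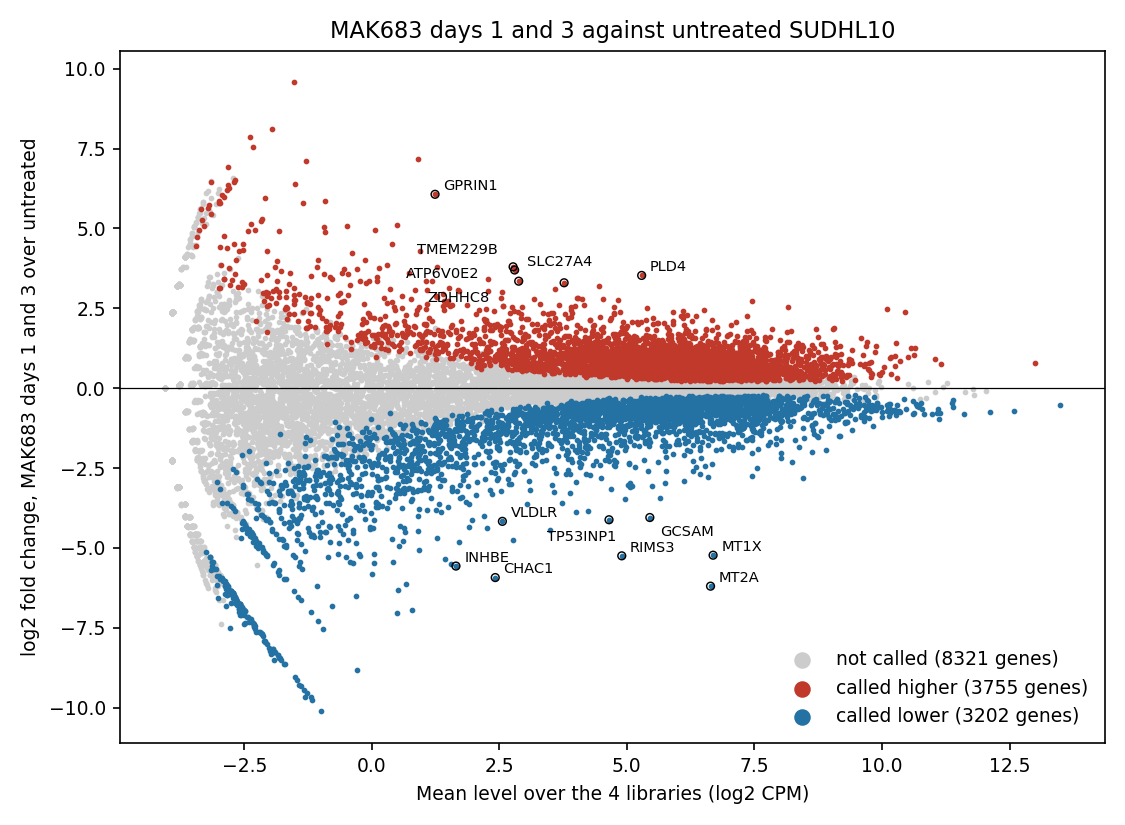
Log2 fold change of MAK683 days 1 and 3 over untreated (y axis) against the mean log2 CPM of the 4 libraries (x axis), 1 point per tested gene, with called genes in colour and some of the largest changes among genes of at least 1 log2 CPM named. Called genes are 3755 above and 3202 below 0, and the named falls reach -6.20 for MT2A while the named rises reach 6.07 for GPRIN1.

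Of the 6 core genes of PRC2, 2 rose and 1 fell, none by more than 0.92 log2 units. EZH2, the main catalytic subunit, stood at 228 and 209 CPM in the untreated libraries, 222 CPM with MAK683 at day 1 and 195 CPM by day 3, and was not called (log2 -0.07, SE 0.10, adjusted p = 0.637). EED, the subunit that MAK683 binds, was at 35 and 32.4 CPM untreated and at 56.5 and 46.6 CPM on days 1 and 3, a rise of 0.61 log2 units (SE 0.12, adjusted p = 0.000914). Both treated values of EED lay above both untreated ones, whereas those of EZH2 overlapped. EZH1, the alternative enzyme, fell from 97.7 and 77 CPM to 49.5 and 42.8 CPM (log2 -0.92, SE 0.15, adjusted p = 0.000213). RBBP7, a histone-binding subunit, rose by 0.55 log2 units (SE 0.10), and SUZ12 (0.18, adjusted p = 0.148) and RBBP4 (-0.07, adjusted p = 0.586) were not called. In MAK683 day 5 cells the levels were 259 CPM for EZH2, 33.2 CPM for EED and 102 CPM for EZH1, near those of untreated cells.

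The accessory subunits, which steer PRC2 to its targets, went in both directions. PHF1 fell from 36 and 38.7 CPM to 12.8 and 7.87 CPM (log2 -1.86, SE 0.21, adjusted p = 1.08e-05), and its paralog PHF19 rose from 74.1 and 72.8 CPM to 141 and 148 CPM (log2 0.98, SE 0.08, adjusted p = 7.57e-07). In the third of this family, MTF2, the groups overlapped (85.4 and 76.9 against 79.5 and 79.5 CPM, adjusted p = 0.823). LCOR fell by 0.67 log2 units (SE 0.17), and JARID2 and AEBP2 were not called. KDM6B, one of the enzymes that remove the mark, fell from 113 and 121 CPM to 77.4 and 51.6 CPM (log2 -0.86, SE 0.19, adjusted p = 0.00242), while KDM6A was not called. Of 23 genes of Polycomb repressive complex 1, which binds the mark, 8 rose and 5 fell, with a median of 0.11 log2 units. At MAK683 day 5, 12 of the 23 were higher and 3 lower than in untreated cells (median 0.59). L3MBTL2 rose from 53.2 and 56.9 CPM to 122 and 113 CPM, CBX6 from 71.7 and 71.9 CPM to 119 and 161 CPM, and CBX7, a reader of the mark, fell from 31.4 and 29.8 CPM to 3.9 and 10.3 CPM (log2 -2.10, SE 0.32).

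Among called genes averaging at least 1 log2 CPM over the 4 libraries, the largest rises came from genes at low levels in untreated cells. Some genes below that average rose more, such as IFITM1 by 7.16 log2 units. GPRIN1, which takes part in neurite outgrowth, was at 0.281 and 0.236 CPM untreated, 14.6 CPM at day 1 and 20.7 CPM at day 3 (log2 6.07, SE 0.30, adjusted p = 3.08e-08). It was at 0.45 CPM at MAK683 day 5, and between 7.08 and 24.9 CPM in the 8 UNC1999 libraries. So GPRIN1 was high in both early MAK683 libraries and every UNC1999 library, and low in the 3 others. PLD4, an endolysosomal enzyme that degrades nucleic acids, was at 12.9 and 10.3 CPM untreated and 157 and 110 CPM on days 1 and 3 (log2 3.53, SE 0.16, adjusted p = 1.79e-08). It was at 28.9 CPM at MAK683 day 5. TMEM229B (a membrane protein), ATP6V0E2 (a subunit of the vacuolar proton pump) and ZDHHC8 (a palmitoyltransferase) rose by 3.80, 3.70 and 3.35 log2 units. The last 3 were still above untreated cells at MAK683 day 5, at 10.2, 11.2 and 19.7 CPM against 1.69 to 2.61 CPM.

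Secreted factors and metabolic enzymes were among the other large rises. BMP3, a ligand of the bone morphogenetic protein family, rose from 0.394 and 1.06 CPM to 5.49 and 9.35 CPM, and CLCF1, a cytokine of the interleukin 6 family, from 0.759 and 0.501 CPM to 7.52 and 5.54 CPM. SLC27A4, a fatty acid transporter, rose from 4.3 and 4.33 CPM to 45.9 and 39.3 CPM (log2 3.30, SE 0.15, adjusted p = 1.87e-08). PYCRL makes proline and ALDH4A1 breaks it down; they rose by 3.09 and 3.13 log2 units. PFKFB2, which sets the level of a glycolysis activator, rose by 3.08 log2 units. KDELC1, APOBR and IQCE rose by 3.80, 3.41 and 3.07 log2 units. Day 5 values differed between these genes. SLC27A4 and PYCRL were at 3.60 and 2.04 CPM at MAK683 day 5, below the untreated range, and PFKFB2 was at 9.16 CPM, above both early days.

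Among called genes with the same average of at least 1 log2 CPM, the largest falls were in stress genes. MT2A, a metallothionein that binds zinc and copper, was at 737 and 1020 CPM untreated, 16 CPM at day 1 and 8.08 CPM at day 3 (log2 -6.20, SE 0.33, adjusted p = 4.06e-08). CHAC1, which degrades glutathione, fell from 39 and 43.4 CPM to 0.474 and 0.855 CPM (log2 -5.93, SE 0.28, adjusted p = 1.87e-08), and ATF3, a stress transcription factor, from 19.1 and 20 CPM to 0.237 and 0.590 CPM (log2 -5.52, SE 0.51). In each of these the treated libraries lay far below both untreated ones, and ranges that do not overlap were a condition for being named. INHBE, an activin subunit gene, TNXB, a matrix protein gene, and RIMS3, a gene of synaptic vesicle release, fell by 5.57, 5.35 and 5.25 log2 units. SLC6A9, a glycine transporter, fell from 13.1 and 14.1 CPM to 0.136 and 0.884 CPM. In the MAK683 day 5 library, RIMS3 was at 136 CPM against 196 and 199 CPM untreated, and SLC6A9 at 11.7 CPM. The pseudogenes SERPINB9P1, USP32P2 and PTPRVP fell by 4.82, 4.43 and 4.37 log2 units. Reads may be shared between a pseudogene and its parent gene, and TNXB has a partial copy, so these counts are uncertain.

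**Figure D3:**
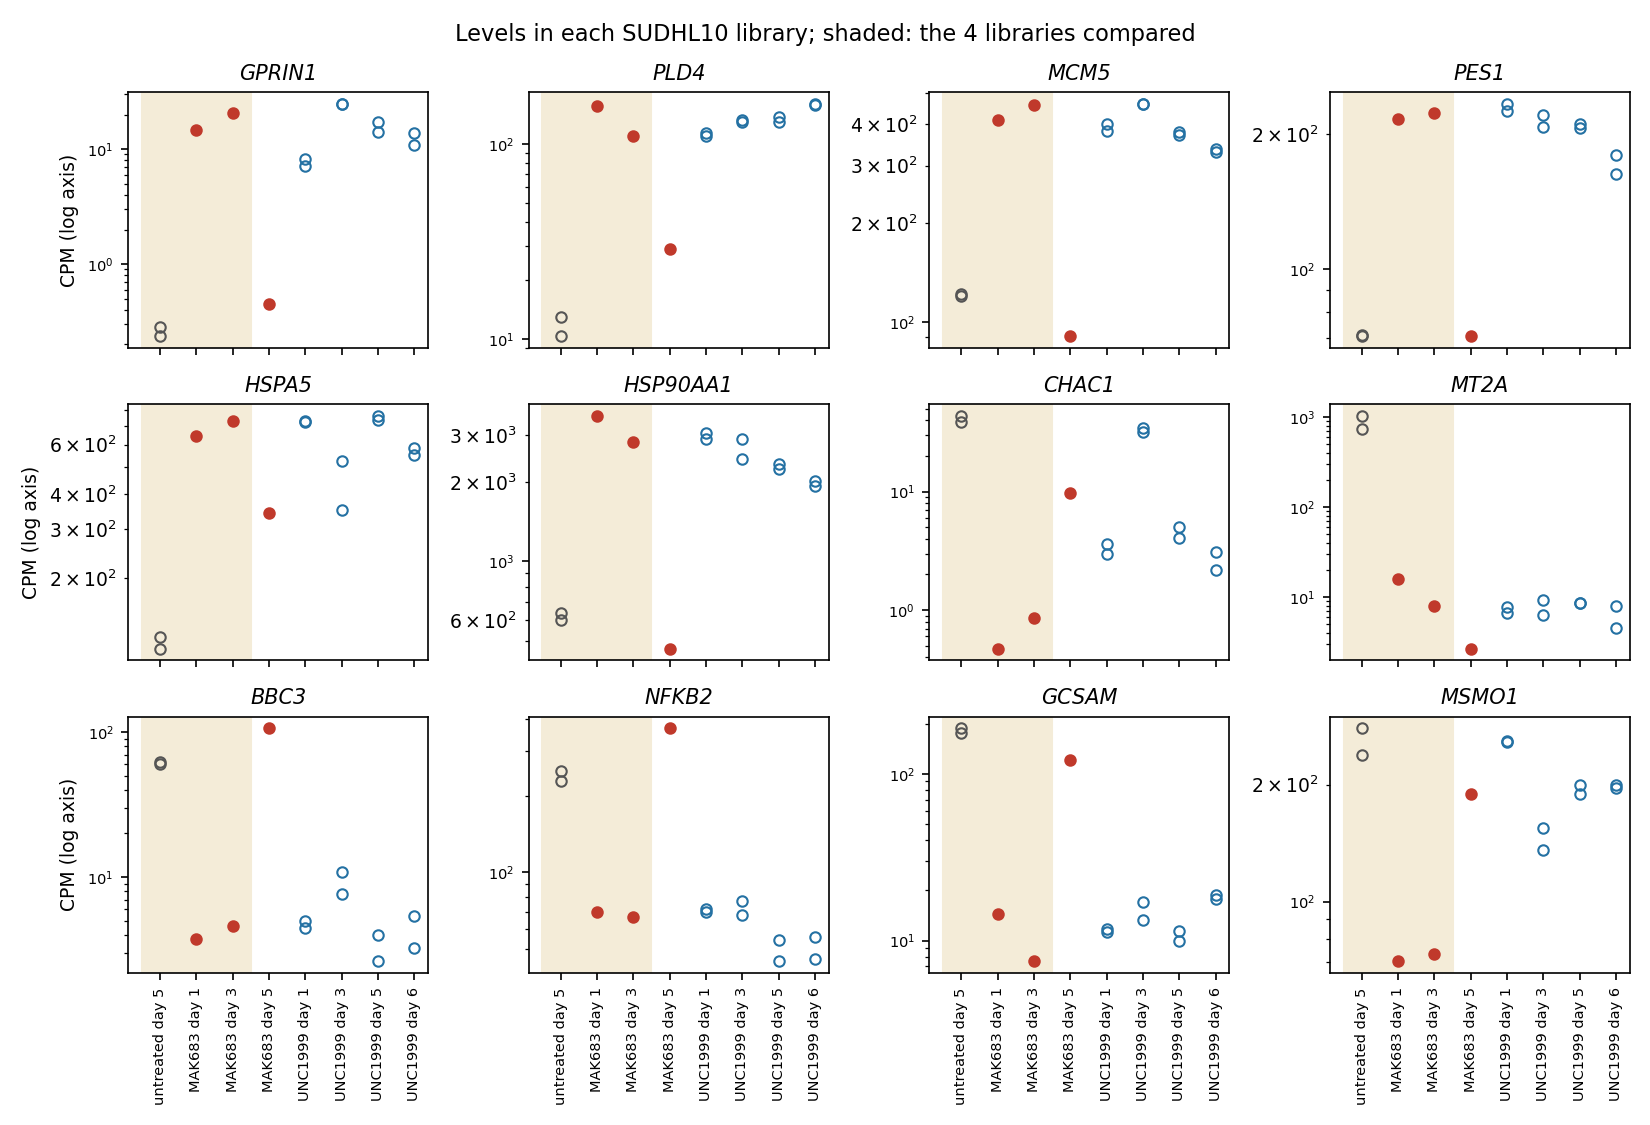
CPM (log axis) of 12 genes in each of the 13 SUDHL10 libraries, 1 point per library, ordered by compound and day; the shaded libraries are the 4 compared. In MCM5, PES1, BBC3 and NFKB2 MAK683 day 5 lies at or beyond the untreated level (90.7, 70.8, 106 and 367 CPM), whereas MT2A stays low at 2.7 CPM and HSPA5 stays high at 341 CPM.

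UNC1999 libraries of day 5, the day of the untreated ones, lay near the early MAK683 libraries in several of these genes, with no test made. There MCM5 was at 379 and 371 CPM, NFKB2 at 45 and 54.2 CPM, and BBC3 at 2.64 and 3.98 CPM. In other genes they lay near the untreated libraries instead. MS4A1 was at 1050 and 958 CPM with UNC1999 at day 5, 1020 and 933 CPM untreated, and 326 and 360 CPM with early MAK683. CD22 was at 1340 and 1300 CPM, against 1430 and 1320 CPM untreated and 507 and 708 CPM with early MAK683. The genes given here were picked after their values were seen.

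Fewer genes that were close to silent in untreated cells were called, and low counts leave less room for a call. Of the tested genes, 2649 were under 0.5 CPM in both untreated libraries, and 164 of these (6.19%) rose and 84 (3.17%) fell with MAK683. At day 1, 13 of them reached 2 CPM, and at day 3, 38 did, while 49 did in the MAK683 day 5 library. In the UNC1999 libraries the number was 19 and 24 at day 1, 141 and 150 at day 3 and 284 and 293 at day 6. As these genes were selected on their untreated values, the counts are a description. The filter on low counts could be passed through any library, and of the treated ones 8 are UNC1999 and 3 MAK683, so the numbers of the compounds are not to be compared. Among those that rose, and named here after their values were seen, IFITM1, an interferon-inducible membrane protein, went from 0.0843 and 0.177 CPM to 17.9 and 20.3 CPM. CD28, a co-stimulatory receptor best known from T cells, went from 0.365 and 0.0295 CPM to 3.29 and 9.20 CPM. FZD1, a Wnt receptor, was at 0.225 and 0.265 CPM untreated and at 5.69 and 5.57 CPM treated. TYRO3, a receptor tyrosine kinase, was at 0.197 and 0.324 CPM untreated, 2.47 CPM at day 1 and 15.7 CPM at day 3. MAK683 day 5 held 0.173 CPM of IFITM1, 0.415 CPM of CD28, 0.104 CPM of FZD1 and 6.05 CPM of TYRO3.

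Homeobox and other developmental regulators, textbook targets of Polycomb, showed no common direction. Of 39 HOX genes 19 were tested, of which 5 rose and 3 fell (median -0.11 log2 units). HOXA7 rose from 6.41 and 7.87 CPM to 13.4 and 17.2 CPM (log2 1.10, SE 0.20, adjusted p = 0.000605), and HOXA10 by 0.55 log2 units. HOXA13 was at 0 and 0.118 CPM untreated, 0.271 CPM at day 1 and 1.42 CPM at day 3. It was called higher (adjusted p = 0.0056). HOXB9 fell from 3.51 and 4.36 CPM to 0.203 and 0 CPM, and HOXB3 from 14.9 and 10.2 CPM to 4.64 and 3.98 CPM. At day 5 of MAK683, 3 of the 19 were higher and 1 lower. Of 141 developmental transcription factors, 33 were tested, and 3 rose and 2 fell. The rises were PITX1 (143 and 161 CPM to 260 and 370 CPM, log2 1.05, SE 0.14), FOXC1 (0.365 and 0.619 CPM to 0.644 and 2.62 CPM) and MNX1. MNX1 was within the untreated range of 0.855 to 1.71 CPM at day 1 (1.25 CPM) and above it at day 3 (5.69 CPM). RUNX2 and PAX8 fell by 1.09 and 1.17 log2 units. On day 5 of MAK683, 7 of the 33 were higher and 1 lower than in untreated cells.

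Few lineage-foreign genes rose, against 24.6% of all tested genes. In the T and NK cell list the rises, 2 of 10, came at a share close to that. Falls among neuronal and germline genes came at shares close to that of all tested genes. Many members of the neuronal, T and NK cell, myeloid and germline lists had too few counts to test. Low counts also leave less room for a call. Of 23 neuronal genes, 2 rose and 5 fell; UCHL1, a ubiquitin hydrolase of neurons, rose from 202 and 202 CPM to 399 and 325 CPM, and SYT1, a synaptic vesicle sensor, fell from 43.5 and 44.6 CPM to 24.9 and 22.9 CPM. Of 17 myeloid genes only CEBPB, a transcription factor also listed with the stress response, was called, and it fell by 2.00 log2 units (SE 0.18). Of 10 T and NK cell genes 2 rose: CD247, a T cell receptor chain (9.61 and 9.93 CPM to 14.7 and 12.4 CPM), and CD6, at 0.0843 and 0 CPM untreated, 0 CPM at day 1 and 0.826 CPM at day 3. CD6 had 3 counts untreated and 28 treated, all of them at day 3, a ratio of 10.2 (95% counting interval 3.16 to 52.6). Of 13 stromal and epithelial genes, decorin (DCN) rose from 6.13 and 7.01 CPM to 11.7 and 33 CPM, and the keratins KRT18 and KRT19 fell. KRT19 had 0 counts in both treated libraries and was at least 24-fold lower, against 3 counts over the group. Of 8 germline genes, 2 fell (DDX4, an RNA helicase, and PIWIL2, of the piRNA pathway) and none rose; DDX4 was at 0 in both treated libraries and at least 6.08-fold lower.

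**Figure D4:**
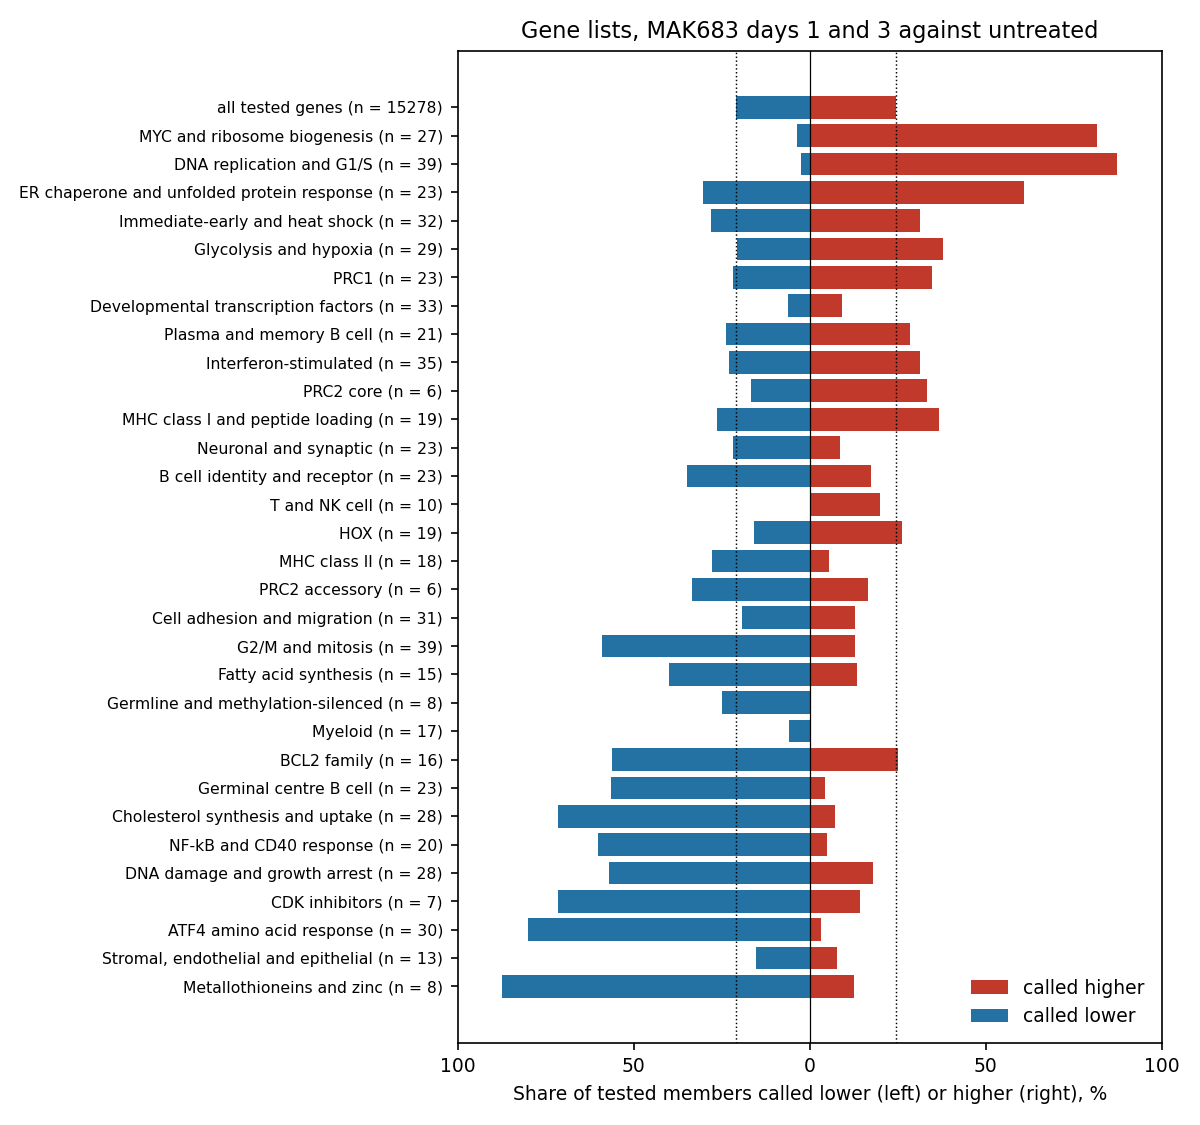
Share of the tested members of each gene list called higher (right) or lower (left) with MAK683 days 1 and 3 against untreated, in percent (x axis), with the number tested in brackets; lists are ordered by median log2 fold change, and dotted lines mark the shares over all 15278 tested genes, 24.6% higher and 21% lower. DNA replication has 34 of 39 genes to the right, and the ATF4 response has 24 of 30 to the left.

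DNA replication genes rose together. Of 39 genes of replication and of entry into S phase, 34 rose and 1 fell, with a median of 0.93 log2 units against 0 over all tested genes. MCM5, part of the replicative helicase, was at 120 and 122 CPM untreated, 412 CPM at day 1 and 457 CPM at day 3 (log2 1.84, SE 0.08, adjusted p = 1.8e-08). UHRF1, which carries DNA methylation through replication, rose from 36.9 and 37.6 CPM to 198 and 160 CPM (log2 2.27, SE 0.13), and CLSPN, a checkpoint mediator at the fork, from 39.8 and 35.2 CPM to 167 and 155 CPM (log2 2.10, SE 0.11). In all 3 genes both treated libraries lay far above the untreated ones. FEN1, POLA1 and MCM4, which process, prime and unwind the DNA, rose by 1.48, 1.43 and 1.33 log2 units. CDT1, a licensing factor, was the gene that fell (log2 -0.42, adjusted p = 0.0314), with overlapping libraries (245 and 332 against 183 and 247 CPM). With MAK683 at day 5, no gene of this list was higher than in untreated cells and 32 were lower (median -0.75). MCM5 was then at 90.7 CPM.

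Genes of mitosis went the other way. Of 39 genes of G2 and mitosis, 5 rose and 23 fell, with a median of -0.34 log2 units. NEK2, a centrosome kinase, fell from 112 and 128 CPM to 47.1 and 41.4 CPM (log2 -1.44, SE 0.11, adjusted p = 4.1e-07). KIF20A, a kinesin of cytokinesis, fell from 122 and 128 CPM to 74.4 and 68 CPM, and cyclin B2 (CCNB2) from 158 and 173 CPM to 108 and 93.5 CPM. HMMR, the cytokinesis factor PRC1 and KIF2C fell by 0.67, 0.72 and 0.72 log2 units. The 5 that rose were MKI67, PLK1, KIF11, GTSE1 and FOXM1, by 0.32 to 0.56 log2 units, a naming made after their values were seen. By day 5 of MAK683, 14 of the 39 were lower and none higher than in untreated cells.

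Inhibitors of cyclin-dependent kinases were mostly lower. Of 7 tested genes, 5 fell and 1 rose. CDKN1B (p27) fell from 169 and 187 CPM to 55.7 and 60 CPM (log2 -1.62, SE 0.10, adjusted p = 8.88e-08). CDKN1A (p21) fell from 4.41 and 3.45 CPM to 0.542 and 1.21 CPM, and CDKN2D from 25.8 and 25.5 CPM to 17.7 and 4.66 CPM. CDKN2A, a well-known Polycomb target, was at 141 and 155 CPM untreated and at 127 and 95.4 CPM on days 1 and 3, and fell by 0.41 log2 units (SE 0.12, adjusted p = 0.0118). It was thus counted well above 0 in all 4 libraries. CDKN3 fell by 0.52 log2 units. CDKN2C (p18) rose from 61.4 and 65.3 CPM to 96.3 and 105 CPM, and CDKN2B was not called (adjusted p = 0.0923). In the MAK683 day 5 library, CDKN1B was at 250 CPM, above both untreated libraries.

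Ribosome biogenesis and the targets of MYC, which drive growth, rose in 22 of 27 genes and fell in 1, with a median of 1.07 log2 units. PES1, a factor of the large ribosomal subunit, was at 71.4 and 70.9 CPM untreated and 216 and 223 CPM treated (log2 1.62, SE 0.09, adjusted p = 4.06e-08). POLR1A, the largest subunit of RNA polymerase I, rose from 59.8 and 62.2 CPM to 177 and 223 CPM, and SRM, which makes spermidine, from 51.2 and 57.1 CPM to 205 and 178 CPM. RRP12, ODC1 and BOP1 rose by 1.54, 1.08 and 1.45 log2 units. MYC itself was at 389 and 437 CPM untreated and 472 and 476 CPM treated and was not called (log2 0.20, adjusted p = 0.141). The gene that fell was CCND2, from 1.55 and 1.44 CPM to 0 and 0.265 CPM; it and MYC were named after their values were seen. On day 5 of MAK683, none of the 27 was higher than in untreated cells and 8 were lower, and PES1 stood at 70.8 CPM.

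Of 29 genes of glycolysis and hypoxia, 11 rose and 6 fell (median 0.14 log2 units). LDHA, which makes lactate, rose from 599 and 665 CPM to 1240 and 1520 CPM (log2 1.13, SE 0.10, adjusted p = 1.85e-06). PKM and ENO1, of the last steps of glycolysis, rose by 0.99 and 1.05 log2 units, and HK2, of its first step, by 1.02. VEGFA, an angiogenic factor, fell from 140 and 127 CPM to 19.4 and 24.9 CPM (log2 -2.59, SE 0.16), and the aldolase ALDOC from 137 and 164 CPM to 19.6 and 18.5 CPM (log2 -2.98, SE 0.16). With MAK683 at day 5, the list held 2 higher and 17 lower genes, with LDHA at 227 CPM.

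The amino acid response led by ATF4, which is switched on when amino acids are short or translation is stalled, was lower as a group. Of 30 genes 24 fell and 1 rose, with a median of -1.50 log2 units. ATF4 fell from 933 and 978 CPM to 340 and 337 CPM (log2 -1.50, SE 0.09, adjusted p = 7.56e-08), and its relative ATF5 from 926 and 950 CPM to 122 and 143 CPM (log2 -2.82, SE 0.14). ASNS, asparagine synthetase, fell from 658 and 692 CPM to 112 and 162 CPM, and TRIB3, a feedback inhibitor of the response, from 206 and 237 CPM to 33.8 and 34.3 CPM. SLC38A2, a glutamine transporter, fell by 1.48 log2 units. CHAC1, ATF3 and VLDLR, among the largest falls of genes averaging at least 1 log2 CPM, belong here too. PSPH, a serine synthesis enzyme, was the 1 rise (log2 0.69), named after its value was seen. By day 5 of MAK683, 18 of the 30 were lower and 1 higher than in untreated cells, with a smaller median of -0.47, and ATF4 was at 704 CPM.

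Of 23 genes of the endoplasmic reticulum and its unfolded protein response, 14 rose and 7 fell (median 0.52 log2 units). HSPA5 (BiP), the main chaperone of that compartment, rose from 112 and 123 CPM to 645 and 731 CPM (log2 2.55, SE 0.15, adjusted p = 8.16e-08), and SDF2L1 from 8.07 and 9.55 CPM to 65.8 and 57.3 CPM. MANF, PDIA4 and CALR rose by 2.07, 1.82 and 1.86 log2 units. EDEM1, which marks misfolded proteins for destruction, fell from 617 and 649 CPM to 248 and 263 CPM. In the cytosol, HSP90AA1 rose from 599 and 638 CPM to 3550 and 2820 CPM (log2 2.37, SE 0.12), HSPH1 from 66.5 and 70.7 CPM to 528 and 384 CPM, and HSPA8 from 430 and 513 CPM to 3120 and 2130 CPM. DNAJB1 and HSPA1B rose by 1.39 and 2.19 log2 units; HSPA1B has a near-identical copy, so its count is uncertain. These 5 are members of a list of 32 immediate-early and heat shock genes, of which 10 rose and 9 fell. In the MAK683 day 5 library, the cytosolic chaperones HSP90AA1 and HSPA8 were at 467 and 418 CPM, below both untreated libraries, while HSPA5 was at 341 CPM, above them. Of the 23 genes of the endoplasmic reticulum list, 10 were higher and 1 lower at that day than in untreated cells (median 0.26).

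Metallothioneins had the lowest median fold change of the lists. Of 8 tested genes of metallothioneins and zinc transport, 7 fell and 1 rose. MT1X was at 509 and 765 CPM untreated and 17.7 and 16.2 CPM treated (log2 -5.23, SE 0.21, adjusted p = 1.79e-08). MT1G had 269 and 355 counts in the untreated libraries and 1 and 0 counts in the treated ones, a ratio of 0.00176 (95% counting interval 4.44e-05 to 0.00982). MT1F and MT1H had 0 counts with MAK683 and were at least 14.6-fold and at least 24-fold lower, against 3 counts over the group. The median of the list was -5.72 log2 units, or -4.23 with these 2 genes at their bounds. SLC30A1, which exports zinc, fell by 1.62 log2 units, and MTF1, the zinc-sensing transcription factor, rose by 0.46. On day 5 of MAK683, 6 of the 8 were lower than in untreated cells, with 2.7 CPM of MT2A and 4.7 CPM of MT1X. Counts of metallothioneins are uncertain one by one, since their sequences are alike.

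Genes of the response to DNA damage and of growth arrest fell in 16 of 28 and rose in 5 (median -1 log2 units, or -0.94 with the 1 gene without treated counts at its bound). TP53INP1, which acts in autophagy and cell death, fell from 107 and 104 CPM to 7.59 and 4.60 CPM (log2 -4.12, SE 0.23, adjusted p = 4.93e-08). GADD45A, a growth arrest gene, fell from 16.3 and 18 CPM to 1.69 and 3.10 CPM. TNFRSF10B, a death receptor, and POLH, a translesion polymerase, fell by 1.17 and 0.89 log2 units. With MAK683 at day 5, TP53INP1 was at 110 CPM, and 8 genes of the list were higher and 2 lower than in untreated cells.

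The BCL2 family, which sets the threshold of apoptosis, held 9 falls and 4 rises among 16 genes (median -0.54 log2 units). Of its killers, BBC3 (PUMA) fell from 62.2 and 60.4 CPM to 3.76 and 4.57 CPM (log2 -3.87, SE 0.26, adjusted p = 1.76e-07), PMAIP1 (NOXA) from 179 and 197 CPM to 47.8 and 34.5 CPM, and BMF from 200 and 219 CPM to 51.3 and 57.3 CPM. BID rose by 1.01 log2 units. Of the protectors, BCL2 fell from 6.94 and 6.96 CPM to 0.203 and 1.30 CPM (log2 -3.17, SE 0.45), and MCL1 from 1510 and 1600 CPM to 999 and 927 CPM. Members of both functions were thus among the falls. By day 5 of MAK683, 6 of the 16 were higher than in untreated cells and none lower, with BBC3 at 106 CPM and BCL2 at 34.5 CPM.

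Cholesterol synthesis and uptake fell in 20 of 28 genes and rose in 2 (median -0.80 log2 units). MSMO1, a demethylase of sterol precursors, fell from 239 and 279 CPM to 70.3 and 73.2 CPM (log2 -1.85, SE 0.10, adjusted p = 4.19e-08). SREBF2, the master regulator of the pathway, fell from 1030 and 1110 CPM to 379 and 485 CPM. STARD4, FDFT1 and SC5D fell by 1.51, 1.33 and 1.19 log2 units. Of 15 fatty acid synthesis genes 6 fell and 2 rose. Among them the regulator SREBF1 fell from 174 and 168 CPM to 56.3 and 106 CPM, the desaturase SCD fell from 979 and 1110 CPM to 328 and 736 CPM, and SCD5, its relative, rose from 0.0281 and 0.766 CPM to 2.44 and 8.26 CPM. MAK683 day 5 shared the direction of the cholesterol list, with 20 of the 28 genes lower and 3 higher than in untreated cells (median -0.63). The ATF4, mitosis and metallothionein lists, mostly lower, also kept their direction at that day, as did the endoplasmic reticulum list, mostly higher.

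Germinal centre genes fell. Of 23 genes 13 fell and 1 rose, with a median of -0.60 log2 units. GCSAM, an adaptor that restrains motility in germinal centre cells, was at 175 and 187 CPM untreated, 14.4 CPM at day 1 and 7.55 CPM at day 3 (log2 -4.05, SE 0.24, adjusted p = 7.32e-08). RGS13, a brake on chemokine signals, fell from 61 and 59.8 CPM to 21.1 and 22.1 CPM, and the death receptor FAS from 48.9 and 55.7 CPM to 11.3 and 13.1 CPM. POU2AF1, BCL7A and MYBL1 fell by 0.78, 0.69 and 1.30 log2 units. BCL6, the regulator of the germinal centre state, was at 623 and 658 CPM untreated, 279 CPM at day 1 and 485 CPM at day 3 (log2 -0.75, SE 0.18, adjusted p = 0.00351). S1PR2, which confines B cells to the follicle, was the gene that rose, from 143 and 161 CPM to 190 and 243 CPM. In the MAK683 day 5 library, 10 of the 23 were higher and 2 lower than in untreated cells. GCSAM was then at 121 CPM.

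General B cell genes were divided. Of 23 genes, 4 rose and 8 fell (median -0.03 log2 units). CD37, a tetraspanin, fell from 678 and 785 CPM to 254 and 253 CPM (log2 -1.53, SE 0.09, adjusted p = 7.56e-08), MS4A1 (CD20) from 1020 and 933 CPM to 326 and 360 CPM, and the inhibitory receptor CD22 from 1430 and 1320 CPM to 507 and 708 CPM. FCRLA, an intracellular receptor-like protein, rose from 296 and 314 CPM to 538 and 529 CPM, and VPREB3 from 44.1 and 43 CPM to 117 and 81.3 CPM. CD79A, CD79B and PAX5 were not called. In CD79A and CD79B the treated libraries straddled the untreated ones. CD79A was at 807 CPM at day 1 and 476 CPM at day 3, against 595 and 704 CPM untreated. CD79B was at 365 and 207 CPM on these days, against 283 and 287 CPM. Of 21 plasma and memory cell genes, 6 rose and 5 fell. ITGB7, a homing integrin, rose from 96.8 and 97.3 CPM to 239 and 303 CPM, and XBP1, needed for secretion, fell from 49.4 and 55.8 CPM to 28.8 and 34.6 CPM. The plasma cell regulator PRDM1 was at 0.0843 and 0.0884 CPM untreated and at 0 in both treated libraries. In the MAK683 day 5 library, 11 of the 23 general B cell genes were higher and 3 lower than in untreated cells (median 0.22), and of the plasma and memory cell genes 7 were higher and 2 lower.

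Targets of NF-kB and CD40, which convey survival signals to B cells, fell in 12 of 20 genes and rose in 1 (median -0.96 log2 units). NFKB2, a subunit of the factor, fell from 228 and 249 CPM to 70.3 and 66.8 CPM (log2 -1.80, SE 0.12, adjusted p = 1.6e-07), and its partner RELB from 181 and 211 CPM to 26.1 and 44.1 CPM (log2 -2.48, SE 0.23). BIRC3, an inhibitor of apoptosis, fell from 171 and 168 CPM to 37.6 and 50.9 CPM. LTB, CD40 and ICAM1 fell by 1.85, 1.02 and 1.04 log2 units. TNF was the gene that rose, named after its values were seen (17.7 and 16.1 CPM to 45.5 and 20.4 CPM). On day 5 of MAK683, 10 of the 20 were higher and 3 lower than in untreated cells, with NFKB2 at 367 CPM and RELB at 304 CPM.

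Antigen presentation and interferon genes showed no single direction. Of 18 class II genes 5 fell and 1 rose. HLA-DOB, which modulates peptide loading, fell from 40.5 and 34.1 CPM to 13.1 and 6.60 CPM (log2 -1.92, SE 0.31), HLA-DRA by 0.44 log2 units, and HLA-DMB rose by 0.50. Of 19 class I and peptide-loading genes, 7 rose and 5 fell. HLA-E fell from 678 and 757 CPM to 215 and 291 CPM, whereas NLRC5, the class I transactivator, rose from 31 and 28.9 CPM to 67.7 and 84.1 CPM. The regulator and HLA-E, a class I heavy chain gene, thus went in opposite directions. Reads of HLA genes can be shared between near-identical copies, so these values are uncertain. Of 35 interferon-stimulated genes, 11 rose and 8 fell: ISG15 rose from 41.5 and 39.3 CPM to 70.6 and 74 CPM, USP18, a brake on interferon signals, from 0.141 and 0 CPM to 1.90 and 3.13 CPM, and IFIH1, a sensor of double-stranded RNA, fell from 25.2 and 27.1 CPM to 6.98 and 11.4 CPM. With MAK683 at day 5, 12 of the 18 class II genes were higher and 2 lower than in untreated cells. Of the class I and peptide-loading genes, 8 were higher and 1 lower, and of the interferon-stimulated genes 4 were higher and 4 lower.

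Of 31 adhesion and migration genes, 4 rose and 6 fell, the falls at a share close to that of all tested genes. Vimentin (VIM), an intermediate filament, rose from 17.3 and 18.3 CPM to 80.2 and 123 CPM (log2 2.51, SE 0.20, adjusted p = 6.55e-07). The integrin chain ITGB1 fell from 141 and 157 CPM to 37.3 and 58.5 CPM, and the chemokine receptor CXCR4 from 74.6 and 88.3 CPM to 29.2 and 47.3 CPM. By day 5 of MAK683, these 3 were at 29.6, 210 and 150 CPM, and 12 of the 31 genes were higher and 3 lower than untreated.

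The 2 days joined in the treated group differed from each other. Between MAK683 day 3 and day 1, 1 library each and both assumed to vary like the groups with 2 libraries, 3015 genes (19.7%) were called: 1558 genes were higher at day 3 (10.2%) and 1457 lower (9.54%). THRA, a thyroid hormone receptor, was at 0.881 CPM on the first of these days, 7.84 CPM on the other and 32.3 CPM at MAK683 day 5, against 1.74 and 2.65 CPM untreated. Its log2 difference between the days was 3.15 (SE 0.33, adjusted p = 4.43e-07), and day 1 lay below and day 3 above the untreated range. SLC8A1, a sodium-calcium exchanger, was at 4.10 and 30 CPM on days 1 and 3 against 9.11 and 10.3 CPM untreated (log2 2.87, SE 0.22), and DEPTOR, an inhibitor of mTOR, at 5.35 and 35.7 CPM against 67.8 and 70 CPM (log2 2.74, SE 0.25). In SLC45A3, MEX3A, DIXDC1, ZSWIM5 and MTURN the log2 difference was 3.04, 3.03, 2.91, 2.89 and 2.73.

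Of the genes lower at day 3 than at day 1, SERPINA9, a serpin of germinal centre cells, was at 152 CPM at day 1 and 31.7 CPM at day 3, against 58.1 and 68 CPM untreated (log2 -2.26, SE 0.16, adjusted p = 3.97e-09). LGALS1 (galectin 1) was at 34.5 and 7.55 CPM against 19.5 and 24.4 CPM (log2 -2.19, SE 0.19). In these 2 genes the treated libraries straddled the untreated ones, and the joined group was not called against untreated (adjusted p = 0.35 for SERPINA9 and 0.927 for LGALS1). The other 6 were PMEL, FAM212A, MIR142, MIOX, IZUMO4 and SCARNA12, with log2 differences of -3.45, -3.45, -3.25, -2.37, -2.36 and -2.25. MIR142 and SCARNA12 are symbols of short RNAs, whose counts in such libraries are uncertain.

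By group, fatty acid synthesis was higher at day 3 in 9 of 15 genes and lower in none, with a median difference of 0.70 log2 units. Among cholesterol genes 11 of 28 were higher and 1 lower, in the ATF4 response 12 of 30 were higher and 1 lower, and in glycolysis and hypoxia 12 of 29 were higher and none lower. Heat shock and immediate-early genes were lower in 10 of 32 and higher in none, and genes of mitosis were lower in 11 of 39 and higher in 2. SCD illustrates the first group, at 328 CPM at day 1 and 736 CPM at day 3 against 979 and 1110 CPM untreated (log2 between days 1.17, SE 0.11, adjusted p = 1.03e-07). Replication genes had 1 higher and 7 lower of 39. HOX genes had no call between the days in 19 tested.

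MAK683 and UNC1999 were compared directly at the matched dose of 5 uM and the matched days 1 and 3, the only pair of compounds, in a contrast that uses no untreated library. The compounds bind different subunits of the complex. Of the tested genes 2929 (19.2%) were called, 1540 (10.1%) higher with MAK683 and 1389 (9.09%) lower. Which direction held more calls turned with the scaling and the tool, with 1252 higher and 1521 lower under RLE size factors and 1227 and 1482 with DESeq2. The counts depend on 2 libraries: without MAK683 day 3, which leaves day 1 alone, they were 557 and 665, and without the second UNC1999 library of day 1 the higher count was 829. EFR3B, which anchors a lipid kinase at the plasma membrane, had 3 counts in the MAK683 group and 2709 with UNC1999, a ratio of 0.00227 (95% counting interval 0.000467 to 0.00663). It was at 10.1 to 30 CPM in the UNC1999 libraries and at 0.253 and 0.0884 CPM untreated. TCF7, a transcription factor of lymphocytes, was at 0.0678 and 0.295 CPM with MAK683 on days 1 and 3, and at 10.8, 7.11, 4.41 and 5 CPM with UNC1999 (log2 -5.48, SE 0.33, adjusted p = 8.26e-12). In TCF7 UNC1999 was near the untreated level of 7.45 and 9.05 CPM, and MAK683 far below it.

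LZTS1, ITGAD, SH3PXD2A and TSC22D3 were lower with MAK683 than with UNC1999 by 4.24, 5.09, 3.88 and 3.59 log2 units. ITGAD, a leukocyte integrin, was at 1.34 to 25.4 CPM with UNC1999 and at 0.102 and 0.295 CPM with MAK683. Of the genes higher with MAK683, SAMD9L, an interferon-inducible growth inhibitor, was at 17.6 and 12.5 CPM with MAK683, 3.30 to 5.49 CPM with UNC1999 and 4.95 and 3.07 CPM untreated (log2 1.82, SE 0.21, adjusted p = 6.93e-07). ALOX5, which starts leukotriene synthesis, was at 167 and 108 CPM with MAK683, 40.5 to 90.4 CPM with UNC1999 and 153 and 138 CPM untreated (log2 1.15, SE 0.08, adjusted p = 6.26e-11). The other 6 were SH3TC1, AMPD3, FMN1, IPCEF1, BZRAP1 and GAPT, at 1.02 to 1.38 log2 units.

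**Figure D5:**
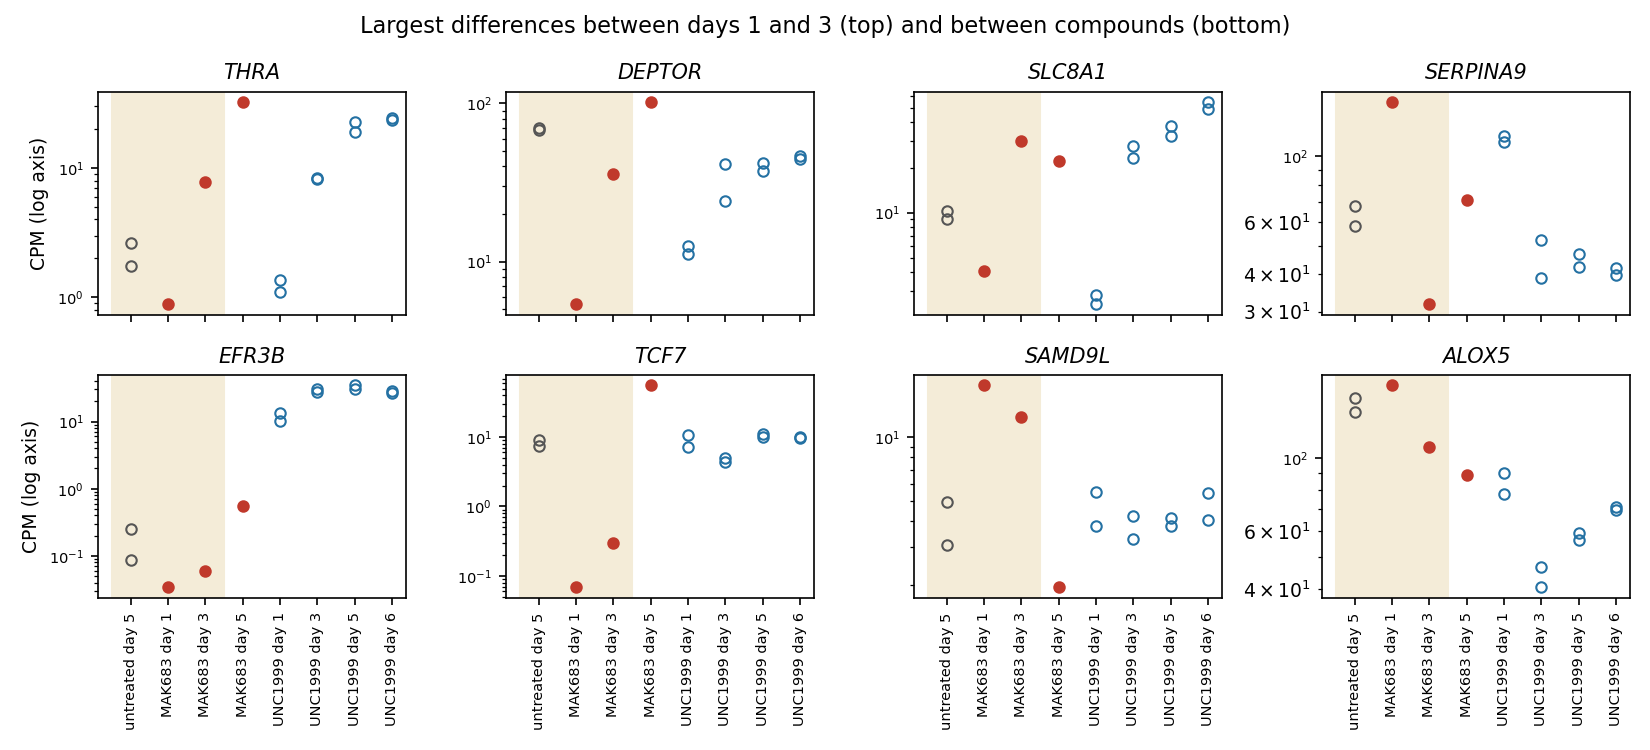
CPM (log axis) in each of the 13 SUDHL10 libraries for 4 genes with large differences between MAK683 days 1 and 3 (top) and 4 with large differences between MAK683 and UNC1999 at those days (bottom), 1 point per library, with the 4 libraries compared to each other shaded. EFR3B is at 10.1 to 30 CPM in the UNC1999 libraries of days 1 and 3 and at 0.0339 and 0.059 CPM in the early MAK683 libraries.

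Cholesterol synthesis and uptake was lower with MAK683 than with UNC1999 in 24 of 28 genes and higher in 1 (median -1.09 log2 units). HMGCS1, of the first committed steps, was at 227 and 301 CPM with MAK683 on days 1 and 3, at 1390 and 1380 CPM with UNC1999 at day 1 and at 672 and 612 CPM at day 3 (log2 -1.85, SE 0.07, adjusted p = 3.46e-15), and was named after its values were seen. The untreated libraries were at 578 and 599 CPM, so that UNC1999 lay above and MAK683 below them. MSMO1 differed by -1.44 log2 units (95% interval -1.61 to -1.27). In the ATF4 response 23 of 30 genes were lower with MAK683 and none higher (median -0.59), among them ATF4 by 0.61, TRIB3 by 1.05 and CHAC1 by 4.03 log2 units. CHAC1 was at 3.61 and 2.96 CPM with UNC1999 at day 1 and at 32 and 34.4 CPM at day 3, the latter close to the untreated level. Genes of mitosis were higher with MAK683 in 20 of 39 and lower in none (median 0.22).

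Several genes described above were not called between the compounds. For MCM5 the difference was 0.03 log2 units (95% interval -0.09 to 0.15), for PES1 -0.02 (-0.16 to 0.12), for EZH2 0 (-0.14 to 0.14) and for EED 0.15 (-0.02 to 0.32). NFKB2 differed by -0.07 (-0.26 to 0.12), PLD4 by 0.12 (-0.02 to 0.26) and GPRIN1 by 0.33 (0.04 to 0.62, adjusted p = 0.106). By contrast, HSPA5 was called higher with MAK683 (log2 0.28, 0.09 to 0.47, adjusted p = 0.0366) and BBC3 was called lower (log2 -0.68, -1.07 to -0.29).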

How the data were processed

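RNA of the SUDHL10 line was analysed. The deposited table holds the authors' raw whole-number counts per gene and library. The submitters' processing notes name STAR 2.5.3a and DESeq2 without a role. The counter, annotation, strand setting and human build behind this table: not given in the sources used here. Both untreated columns share 1 header, so they served as replicates without numbers. Samples were grouped by label. The 13 libraries held 26234896 to 39315662 counts, and replicate pairs differed by more than counting noise (chi-square per degree of freedom of 5.78 to 19 among genes whose 2 counts sum to 20 or more).

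Genes were filtered (filterByExpr, 15278 of 25369 kept), scaled by TMM and tested with edgeR 4.0.16 under R 4.3.3 (quasi-likelihood F test, two-sided, Benjamini-Hochberg over all tested genes). For the main comparison 1 model over 13 libraries took MAK683 days 1 and 3 as 1 group (residual degrees of freedom 6, prior 6.87, biological coefficient of variation 0.143). Other comparisons used 1 mean per compound and day (5, 18.6 and 0.0927), and groups of 1 library are assumed to vary like the rest. SE was taken as |log2 fold change|/√F. The 95% intervals of differences between compounds use that SE, and counting intervals and floors of 3 counts cover counting error only. The scripts were tested on simulated data. Alternatives were DESeq2 1.42.0, other scalings and filters, other groupings and leaving out each library.

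Named genes are all PRC2, H3K27 demethylase and CDK inhibitor list members, the 15 largest changes per direction (8 in the other 2 comparisons) that were called, reached an average log2 CPM of 1 and did not overlap, leaving out clone names, and up to 6 members per other list with the smallest adjusted p. Members of the fixed marker lists are named too. Some genes that these rules name are not reported here. Other genes were named after their values were seen. The members and lists were chosen with earlier results of these data known, so no list was tested and list counts are descriptions. Promoter sequences of these human genes were not used here.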

Additional observations from a re-analysis of the deposited data

Results flagged for a closer look

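Both early days were above untreated cells in the 6 genes named first and below them in the other 7. The rule that named these genes required this, as it asked for ranges that do not overlap. The days differed from each other by edgeR's quasi-likelihood test (1 library a day). Among the largest rises, the log2 difference of day 3 from day 1 was 1.21 in TMEM229B, 0.49 in ATP6V0E2, -0.51 in PLD4, 1.59 in ZDHHC8, 0.86 in ALDH4A1 and 0.97 in PFKFB2 (adjusted p of 2.29e-06 to 0.0417). Of the 6 rises, 5 were thus larger at day 3. Among the largest falls it was -0.98 in MT2A, 1.63 in RIMS3, 2.67 in SLC6A9, 1.51 in USP32P2, 2.2 in VLDLR, -0.72 in TP53INP1 and -0.93 in GCSAM (adjusted p of 4.93e-05 to 0.0336). RIMS3, SLC6A9, USP32P2 and VLDLR were nearer to untreated cells at day 3, and MT2A, TP53INP1 and GCSAM farther from them.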

How the results depend on the processing

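The main comparison gave 6957 calls, and 4702 to 8335 under the other tools, scalings, filters and groupings, the last with 1 mean per day and the first with only the 4 libraries, where the higher count was 2433. Leaving out 1 library each gave 5442 to 7426 calls, 2782 to 4001 higher and 2635 to 3609 lower. Against UNC1999 it gave 1222 to 3420 calls, 557 to 1900 higher and 665 to 1791 lower; the lowest came without MAK683 day 3, and without the second UNC1999 day 1 library 829 were higher. The balance of higher to lower calls turned under other filters too: without a filter it was 3490 to 3657 against untreated and 1259 to 1634 against UNC1999, with the filter of 10 counts 3467 to 3502 and 1269 to 1500. Under total library size it turned only against UNC1999 (1250 to 1509). Of 238 named genes 195 were called, and 163 kept call and direction under all 11 settings in which they had a value. Over the fits that leave out 1 library, the log2 fold change against untreated ran from -2.3 to 1.19 in FAM212A, -2.03 to 1.26 in MIR142, -1.03 to 1.27 in SERPINA9 and -1.58 to 0.65 in LGALS1, negative without MAK683 day 1 and positive without day 3. It ran from -1.31 to 1.8 in THRA, -1.42 to 1.57 in MEX3A, -0.87 to 2.01 in DIXDC1, -1.24 to 1.58 in SLC8A1, -1.89 to 0.8 in MTURN, -0.04 to 2.1 in MNX1 and -3.64 to 6.82 in CD6, negative without MAK683 day 3. MNX1 and CD6 also lost their calls without either untreated library. No paired analysis was possible because the untreated columns carry no distinct number and MAK683 has 1 library per day. Depth limits genes under about 0.5 CPM.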
